A study of Mus musculus with 2 samples.

Results

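MTF2 and JARID2 are both accessory proteins of PRC2, the Polycomb complex whose histone methylation keeps developmental genes silent. MTF2 is one of the Polycomb-like proteins, which can bind CpG-rich DNA, and JARID2 is a Jumonji-family protein that lacks demethylase activity of its own. In embryonic stem (ES) cells they are known as members of alternative forms of PRC2 that often meet at the same CpG-rich promoters. The bins described here are the places where MTF2 was high in the genome while JARID2 was only weakly raised.

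Each protein was profiled in 1 ChIP-seq library. In ChIP-seq, DNA bound by a protein is pulled down with an antibody and sequenced. Both libraries were made from mouse ES cells of 129SvJae x C57BL/6 background at passages 10 to 15, harvested after 2 to 3 passages away from feeders. Replicates, input DNA and a control antibody are not among the samples, so every level below is relative to the rest of its own library, and no difference between the libraries was tested. Expression was not measured, so the cell type could not be checked against marker genes.

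Kept reads (1 per chromosome, strand and 5' end) gave a count for each 1 kb bin of chromosomes 1 to 19, and the fold of a bin is its count over the expected count of its chromosome. The expected count had a median over chromosomes of 3.39 MTF2 and 4.25 JARID2 reads. A bin is a member when its MTF2 fold is at least 5, its JARID2 fold is from 2 to under 5, and both files have under 3 lines per kept read there. Of 2382450 bins with a read, 738 are members (0.031%). Of these, 542 are isolated and 196 are near a strong JARID2 bin, which is one of 10-fold or more within 5 kb. Isolated bins are 73.4% of the members (95% exact binomial interval 70.1 to 76.6, counting error only). The interval takes bins as independent, which members lying close together are not. This share depends on what counts as a strong JARID2 bin, and it was 30.5% when 5-fold was enough.

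The members were chosen by their measured MTF2 and JARID2 folds, so the sizes of these folds are a description. MTF2 at 5-fold or more occurred in 0.178% of all bins, JARID2 from 2 to under 5-fold in 8.11%, JARID2 at 5-fold or more in 1.88% and at 10-fold or more in 0.805%. Among the 4140 bins with MTF2 at 5-fold or more and few repeated lines, the members make up 17.8%. A strong JARID2 bin lay at or within 5 kb of 72.1% of those 4140 bins and of 5.28% of all bins with a read. Both shares count bins that are themselves strong, which a member cannot be. They are therefore not comparable with the share of near members. The member bins held 16 to 83 MTF2 reads (median 24) and 8 to 29 JARID2 reads (median 16). Their MTF2 fold ran from 5.02 to 17.96 with a median of 6.56, and their JARID2 fold from 2.03 to 4.97 with a median of 3.42. The MTF2 fold was 5 to under 6 in 268 members, 6 to under 8 in 272, 8 to under 10 in 117 and 10 or more in 81.

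**Figure D1:**
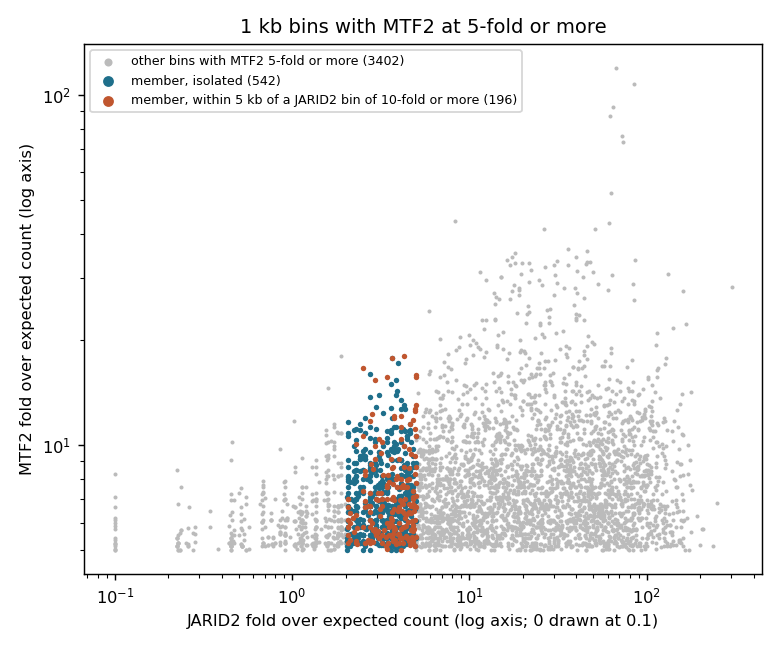
Each point is a 1 kb bin with MTF2 at 5-fold or more, by JARID2 fold (x, log axis) and MTF2 fold (y, log axis), with isolated members in blue, near members in orange and other bins in grey. The 738 members fill a band between the 450 bins with less JARID2 and the 2952 with more, with no gap on either side.

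These limits fall in a continuous range, and the depth does not place a single bin within them. The exact 95% Poisson interval of the JARID2 fold lay wholly between 2 and 5 in 0 of 738 members. At these depths no read count could give an interval inside those limits, so this number was fixed in advance. It lay above 1 in 692 members, above 2 in 340 and below 5 in 251. The MTF2 interval lay above 2 in all 738, which follows from the limit of 5-fold at this depth, and above 5 in 236. The lowest MTF2 fold of a member was 5.02 (17 reads, chromosome 16 from 3162001 to 3163000), and the bin just below the limit had 4.999 (18 reads, chromosome 3 from 25712001). The lowest JARID2 fold of a member was 2.03 (9 reads, chromosome 7 from 39092001), against 1.996 just outside (7 reads, chromosome 3 from 25717001). At the upper limit the values were 4.97 inside (19 reads, chromosome 12 from 50254001) and 5.01 outside (22 reads, chromosome 5 from 14924001). The limit on repeated lines removed no bin, and the highest number of lines per kept read in a member was 2.11.

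The members were crowded on a few chromosomes. Chromosome 4 held 224 of them and chromosome 8 held 174, which is 14.9 and 13.9 per 10000 bins with a read. Chromosome 5 followed with 75 (5.11 per 10000 bins) and chromosome 1 with 65 (3.40). Chromosome 19 held 2 and chromosome 18 held 3 (0.345 and 0.344 per 10000). The expected count enters the fold, and on chromosome 8 it was the highest of any chromosome used, at 4.62 MTF2 and 5.83 JARID2 reads, so the members there needed more reads than elsewhere. Isolated members made up 194 of the 224 on chromosome 4 and 140 of the 174 on chromosome 8. On chromosome 2 they were 4 of 21, on chromosome 9 they were 1 of 10 and on chromosome 11 they were 2 of 11.

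**Figure D2:**
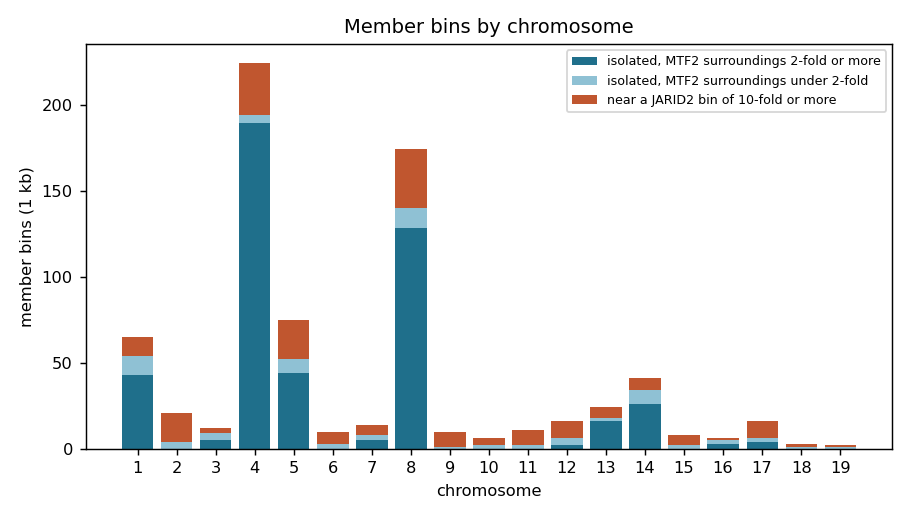
Stacked bars give the number of member bins per chromosome (x), split into isolated members in MTF2 surroundings of 2-fold or more, isolated members in lower surroundings, and members near a JARID2 bin of 10-fold or more. Chromosomes 4 and 8 stand far above the rest with 224 and 174 members.

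The members were also unevenly spread along chromosomes, and how far they gathered depends on the joining distance. When members up to 20 kb apart were joined there were 202 clusters, of which 120 were single bins, and the 4 with the most members held 152 of the 738 (20.6%). When members up to 500 kb apart were joined, the 4 clusters with the most members, called tracts here, held 466 (63.1%), and 382 of the 542 isolated ones, in 0.131% of the bins with a read. The same tracts held 31.6% of the bins with high MTF2 and JARID2 under 2-fold, and 11.0% of those with high MTF2 and JARID2 at 5-fold or more. The tract with the most members, 219, ran for 1982 kb on chromosome 4 from 144674001 to 146656000. The next, with 154 members, ran for 776 kb on chromosome 8 from 19681001 to 20457000. The other two were on chromosome 5 from 14906001 to 15228000 (56 members in 322 kb) and on chromosome 1 from 84845001 to 85225000 (37 members in 380 kb). Outside these 4 tracts there were 272 members, of which 160 were isolated and 112 near.

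Over its bins with a read, each of these tracts had a mean fold above 2 in both libraries. Many of these bins were not raised. On chromosome 4 the mean fold over the tract was 3.53 for MTF2 (Poisson 95% interval 3.48 to 3.58) and 2.81 for JARID2 (2.77 to 2.84), and 78.1% of its bins with a read had MTF2 at 2-fold or more while 57.6% had JARID2 at that level. On chromosome 8 the mean folds were 5.91 (5.82 to 5.997) and 4.62 (4.55 to 4.69), with 74.6% of bins at 2-fold or more in MTF2 and 64.4% in JARID2. On chromosome 5 they were 6.07 (5.91 to 6.23) and 4.51 (4.40 to 4.64), with 87.2% and 79.9% of bins. On chromosome 1 they were 3.72 (3.62 to 3.82) and 3.78 (3.69 to 3.88), with 71.1% and 71.6% of bins, and this was the 1 tract of the 4 in which the MTF2 mean did not exceed the JARID2 mean. Bins without any read numbered 149 in the chromosome 4 tract, 149 in that on chromosome 8, 49 on chromosome 5 and 0 on chromosome 1. They are left out of the means and intervals above, and counting them would lower the means on chromosomes 4, 8 and 5. Input DNA is not among the samples, so whether extra copies of these tracts, or repeated sequence present once in the build, raise the folds of both libraries there was not tested.

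Inside the tracts, the share of bins with MTF2 at 5-fold or more varied with the JARID2 level and between tracts. On chromosome 4 that level was met by 12.2% of bins with JARID2 under 2-fold and 24.9% of those at 2 to 5-fold (the members). From 5 up to 10-fold the share was 29.2%, and above that it was 9.68% (3 of 31 bins). On chromosome 8 those shares were 18.4%, 71.0%, 77.0% and 68.8% (33 of 48 bins). On chromosome 5 they were 10.9%, 55.4%, 71.2% and 100% (13 of 13 bins). On chromosome 1 they were 0% (0 of 108 bins), 20.7%, 53.8% and 69.2% (9 of 13 bins). The median MTF2 fold of the bins with JARID2 at 2 to 5-fold was 3.50 on chromosome 4, 7.36 on chromosome 8, 5.61 on chromosome 5 and 3.71 on chromosome 1. Over the rest of the genome the same JARID2 class had a median MTF2 fold of 0.833 in 191737 bins, of which 0.142% reached 5-fold. There the share reaching 5-fold was 0.0144% at JARID2 under 2-fold, 1.40% from 5 up to 10-fold and 12.4% above that. The tracts were chosen for holding the most members, so higher shares of that JARID2 class inside them follow in part from the choice.

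The level around each member was measured as the median fold of the bins 6 to 25 kb away on both sides. The rule set no MTF2 limit on these bins as neighbours, but the measure is not independent of the rule. Of all members, 497 lay in clusters of 5 or more joined at up to 20 kb. Surroundings can thus hold other members, which were chosen for high MTF2. The level was 2-fold or more in 465 of 542 isolated members (85.8%, 82.6 to 88.6, counting error only, bins taken as independent). It was so in 122 of 196 near members. Every 50th bin of the genome, taken the same way, had such surroundings in 0.397%. In the 465 isolated members with raised surroundings, the median MTF2 fold was 6.71 in the member, 5.54 in the adjoining bins and 3.79 in the surroundings. JARID2 was at 3.26 in the member, 3.06 in the adjoining bins and 2.74 in the surroundings, and it was lower in the member than around it in 155 of the 465. The rule holds the member's JARID2 under 5-fold and sets no upper limit on its MTF2, so the shapes of the 2 profiles at the member are not a comparison of the proteins. The MTF2 fold was at least 2 times that of the surroundings in 177 of these 465, and at least 5 times in 0. By this measure most isolated members are high bins within raised stretches. The DNA sequence of the tracts was not analysed here.

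**Figure D3:**
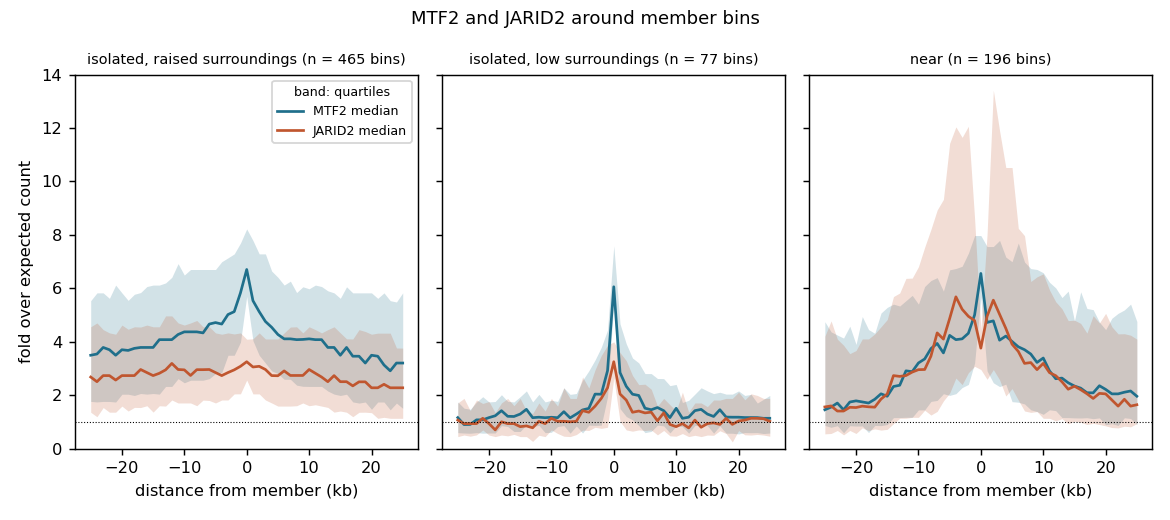
Median fold (lines) and quartiles (bands) of MTF2 in blue and JARID2 in orange at each distance in kb from the member bins, for 465 isolated members in raised surroundings, 77 in low surroundings and 196 near members. The first group stays above 2-fold in both libraries at 25 kb, the second is at 1.18 and 1.52-fold in MTF2 at 10 kb, and in the third JARID2 is lower at the member than at its neighbours.

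The longest runs of adjoining isolated members lay in the chromosome 4 and 8 tracts. The 738 members formed 522 runs of adjoining bins, of which 403 were single bins and the longest was 9 kb. One isolated run spanned 8 kb on chromosome 4 from 145895001 to 145903000, with MTF2 between 5.54 and 12.8-fold and JARID2 between 2.05 and 2.97-fold in all its bins. On chromosome 8 there were 3 isolated runs of 7 kb, from 19731001, from 19869001 and from 20359001. In the run from 19869001, MTF2 went from 8.22 to 13.0-fold and JARID2 from 2.23 to 4.29-fold. The next run, of 6 kb on chromosome 4 from 146231001, had MTF2 from 5.54 to 13.7-fold and JARID2 from 2.28 to 4.79-fold.

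Of the 10 isolated members with the highest MTF2 fold, at most 1 per 100 kb, 7 lay in the tracts on chromosomes 4, 5 and 8. The bin on chromosome 8 from 20420001 to 20421000 held 79 MTF2 reads (17.1-fold, 13.5 to 21.3) and 23 JARID2 reads (3.94-fold, 2.50 to 5.92). Its surroundings stood at 7.79-fold in MTF2 and 8.23-fold in JARID2, so its JARID2 level was below that of the neighbourhood. On chromosome 8 from 20296001 the folds were 14.9 and 3.60, and from 19756001 they were 13.9 and 3.09. On chromosome 4 the bins from 144968001, 146235001 and 145602001 reached 14.3, 13.7 and 13.4-fold for MTF2, beside JARID2 folds of 3.88, 2.74 and 4.11. The bin on chromosome 5 from 14966001 had 13.9 and 3.87-fold. In these 7 bins the MTF2 surroundings ran from 3.06-fold (chromosome 4 from 144968001) to 7.79-fold.

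The other 3 of the 10 lay in flat surroundings. On chromosome 6 from 103280001 to 103281000 there were 62 MTF2 reads (17.7-fold, 13.6 to 22.7) and 14 JARID2 reads (3.64-fold, 1.99 to 6.11), while both adjoining bins were at 0.285-fold in MTF2 and 0.520-fold in JARID2. Of its MTF2 reads, 48 fell in a single 200 bp step and 18 were on the plus strand, and it had 1.45 lines per kept read. On chromosome 16 from 86710001 to 86711000 MTF2 was 15.9-fold (54 reads) and JARID2 2.76-fold (10 reads), with MTF2 at 1.48-fold on both sides. On chromosome 5 from 4059001 to 4060000 MTF2 was 15.4-fold (52 reads) and JARID2 3.87-fold (17 reads). There the raised stretch was wider, since the adjoining bins had MTF2 folds of 10.9 and 8.57 and JARID2 folds of 4.33 and 2.73, with MTF2 at 0.591 and 1.77-fold in the bins beyond.

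**Figure D4:**
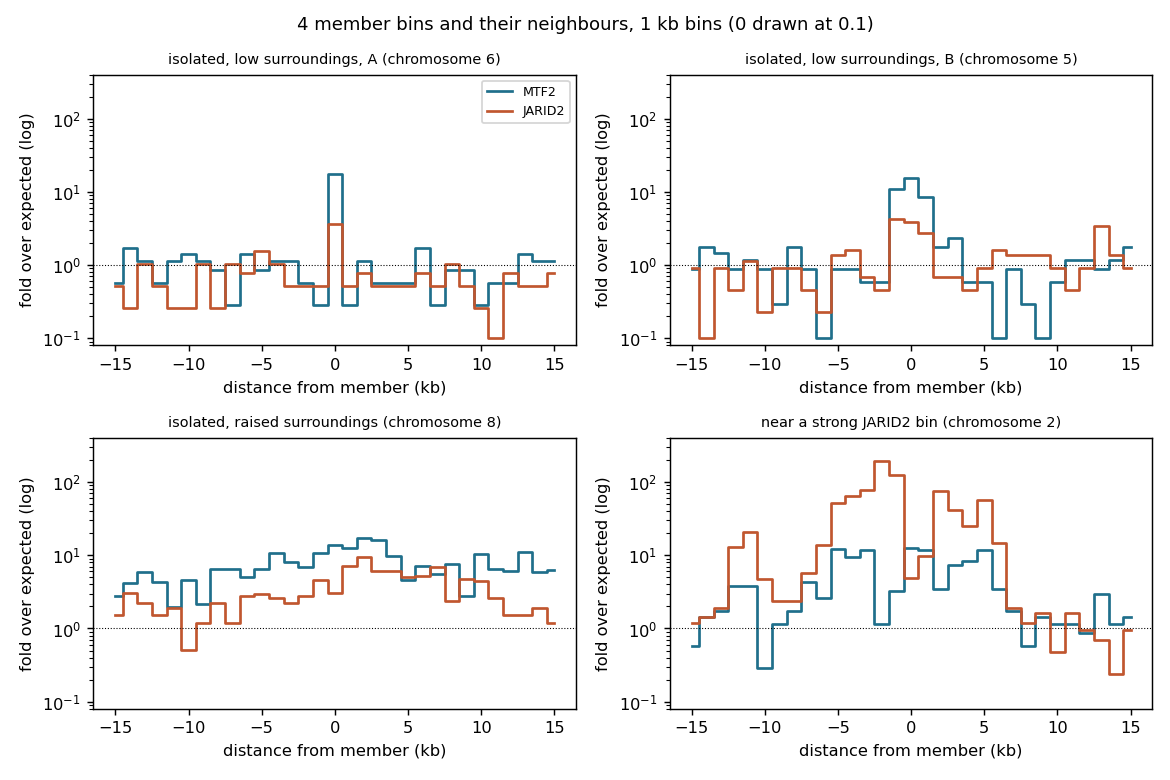
Fold over expected count (y, log axis) of MTF2 in blue and JARID2 in orange in 1 kb bins up to 15 kb from 4 members, given by distance in kb. The member on chromosome 6 rises alone from about 1-fold, and that on chromosome 5 is the middle bin of a run of 3 members. The member on chromosome 8 sits in a stretch raised in both libraries. That on chromosome 2 lies in a dip between JARID2 bins of up to 195-fold.

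The 77 isolated members in surroundings under 2-fold are described by the same values. Their median MTF2 fold was 6.06, against 2.88 in the adjoining bins and 1.28 in the surroundings. Their median JARID2 fold was 3.26, against 2.14 in the adjoining bins and 0.998 in the surroundings, and JARID2 was at least 2 times its own surroundings in 65 of the 77. Since every member has MTF2 at 5-fold or more, all 77 exceed their surroundings at least 2 times by construction, and 36 did so at least 5 times. The JARID2 count is likewise largely set by the rule, which asks for 2-fold or more in the member. They were spread over all 19 chromosomes, with 12 on chromosome 8, 11 on chromosome 1 and between 1 and 8 on each of the others. Besides the 3 bins above, those with the highest MTF2 lay on chromosome 14 from 5427001 (11.1-fold, JARID2 2.95-fold), chromosome 3 from 142129001 (10.8 and 2.57-fold) and chromosome 2 from 3881001 (10.2 and 4.71-fold). These were chosen after their values were seen. Low surroundings do not place a bin outside the wider clusters. The chromosome 14 bin lay in a cluster of 33 members joined at up to 500 kb. A further bin of this group, on chromosome 8 from 20205001, lay in the tract there, with MTF2 at 5.41 and 5.19-fold in the adjoining bins.

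Near members were of the same 2 kinds. The 122 in raised surroundings had JARID2 at 3.65-fold in the member at the median and 3.75-fold around it. They had a median of 1 strong JARID2 bin within 5 kb, whose highest fold had a median of 15.3. The 74 in low surroundings had a median of 4 strong bins, with a highest fold of 60.9 at the median (quartiles 33.4 to 95.9). A strong bin adjoined 53 of these 74 directly, and in 28 there were strong bins on both sides. The nearest strong bin was 2 kb away in another 15 and from 3 to 5 kb away in 6, and 13 of the 74 had only 1 strong bin. The 74 had a median JARID2 fold of 3.96 in the member, 5.57 in the adjoining bins and 1.28 in the surroundings.

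The MTF2 level in the strong JARID2 bins beside these members is given as a description, since the rule selected both kinds of bin on these folds. In the bin with the highest JARID2 fold within 5 kb, the median MTF2 fold was 5.003 for the 74 members in low surroundings, against 6.01 in the members themselves. MTF2 was higher in that bin than in the member in 30 of the 74, and under 2-fold there in 8. The members were selected for high MTF2 and the strong bin was not, which favours the member in this comparison. On chromosome 2 from 73076001 to 73077000 the member had 43 MTF2 reads (12.5-fold, 9.05 to 16.9) and 21 JARID2 reads (4.94-fold, 3.06 to 7.55). The bins 2 and 1 kb before it had JARID2 folds of 195 and 126 and MTF2 folds of 1.16 and 3.20, and the bin after it had JARID2 at 9.65-fold and MTF2 at 11.9-fold. Both were high elsewhere at this site: the bins 5, 4 and 3 kb before the member had JARID2 folds of 51.3, 65.2 and 78.4 and MTF2 folds of 12.2, 9.60 and 11.6, and the bin 5 kb after it had 57.2 and 11.6. On chromosome 4 from 109157001 MTF2 was 10.2-fold and JARID2 3.19-fold, 2 kb from a bin with JARID2 at 76.4-fold and MTF2 at 4.37-fold. On chromosome 9 from 87526001 the member had 8.84 and 2.80-fold, next to a bin with JARID2 at 97.9-fold and MTF2 at 7.37-fold. These 3 were chosen after their values were seen.

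By the rule for named regions, the near members with the highest MTF2 were mostly in raised surroundings. The highest lay on chromosome 8 from 20349001 to 20350000, with 83 MTF2 reads (17.96-fold, 14.3 to 22.3) and 25 JARID2 reads (4.29-fold, 2.77 to 6.33). The bin before it had MTF2 at 19.05-fold and JARID2 at 8.74-fold. On chromosome 5 from 15025001 the folds were 17.7 and 3.64. On chromosome 8 from 20004001 they were 15.8 and 4.97, from 19865001 they were 15.6 and 3.43, and from 19695001 they were 11.7 and 2.74. On chromosome 1 the bins from 84983001 and 85132001 reached 12.3 and 11.1-fold for MTF2, beside JARID2 folds of 2.82 and 4.94. The remaining 3 of the 10 lay outside the 4 tracts, on chromosome 12 from 50257001 (13.0 and 4.97-fold), chromosome 7 from 70236001 (12.7 and 4.95-fold) and the chromosome 2 bin above.

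The position of the reads was measured in 200 bp steps within 2 kb of the member's centre, a window that reaches past the member. The highest steps of MTF2 and JARID2 lay a median of 800 bp apart over all members, 1000 bp in isolated members with raised surroundings and 400 bp in those with low surroundings. They lay within 200 bp in 27 of the 77 members of the last group (35.1%) and in 77 of the 465 of the former (16.6%). The share that unrelated positions would give in this window is not given here, so these values are a description. Members in low surroundings were chosen for counts raised in the centre bin, so their closer steps follow in part from the rule and the split. In the 74 near members with low surroundings the median was 800 bp, and the highest JARID2 step fell inside the member in 4 of them, as their choice beside stronger JARID2 bins implies. Such steps hold few reads, and ties were resolved toward the centre.

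Strands were balanced. Plus-strand reads were 50.2% of the MTF2 reads and 51.0% of the JARID2 reads over all members, and 14 of 738 members had 75% or more of their MTF2 reads on 1 strand. Pairs of opposite-strand MTF2 5' ends were counted at distances from 50 to 400 bp. In isolated members with raised surroundings the number of pairs was nearly flat, with 1.32 times as many at 50 bp as on average from 350 to 400 bp. Near members had at most 1.20 times as many, at 150 bp. In isolated members with low surroundings it was 3.77 times at 50 bp, the shortest distance counted and close to the MTF2 read length of 52 bp. That value rests in part on few bins, since the chromosome 6 bin above gave 87 of the 400 pairs, and without the 3 bins with the most pairs it was 2.30 times. Without the 5 bins with the most pairs it was 2.20 times.

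**Figure D5:**
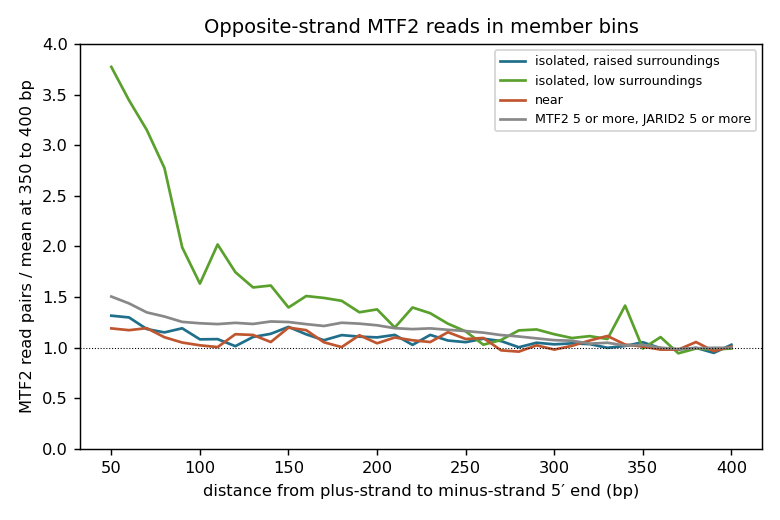
Number of opposite-strand MTF2 read pairs in member bins (y, relative to the mean at 350 to 400 bp) by the distance between their 5' ends in bp (x), for 3 groups of members and for bins with both factors at 5-fold or more. Isolated members in low surroundings reach 3.77 at 50 bp, and the other groups of members stay at or below 1.32.

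The score deposited with each MTF2 line, whose meaning is not given, was not itself used by the rule, although lines of every score enter the folds. Without the lines of score 0 the rule found 1004 members instead of 738. Lines with score 0 were 39.4% of the MTF2 lines in the members (95% exact interval 38.8 to 40.1), close to 39.1% over chromosomes 1 to 19. The share was 39.9% (39.1 to 40.7) in isolated members with raised surroundings and 33.1% (31.1 to 35.2) in those with low surroundings. In near members with low surroundings it was 42.4% (40.1 to 44.8). Without the 5 isolated bins with the most read pairs, the share in low surroundings was 32.9% (30.8 to 35.1). Lines per kept read had a median of 1.05 for MTF2 and 1 for JARID2 over isolated members.

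The other bins with MTF2 at 5-fold or more, those with less or more JARID2, were measured in the same way. Raised MTF2 surroundings were found in 79.5% of the 738 members, in 48.7% of the 450 bins with JARID2 under 2-fold and in 28.9% of the 2952 bins with JARID2 at 5-fold or more. The members thus had the highest share of the 3 classes, which do not overlap. The 4 tracts, chosen for their members, held 63.1% of the members against 31.6% and 11.0% of the other classes. These shares were not computed outside the tracts. The median MTF2 fold was 6.56 in the members, 5.82 with less JARID2 and 7.42 with more. The MTF2 level in the adjoining bins was 5.25, 3.03 and 5.42-fold in the same order. Lines with score 0 made up 39.4%, 42.8% (41.8 to 43.7) and 30.9% (30.6 to 31.2). With 1 library per antibody these differences carry no test, and the bins of a tract are not independent of each other.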

How the data were processed

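There were 2 ChIP-seq libraries, 1 per antibody. The deposited files list aligned reads as intervals, 1 line per read, with a score per line. Per the labels' protocols, libraries were amplified with 15 PCR cycles. No source at hand names the aligner, genome build or any removal of repeated reads. The deposited score ran without a stated meaning and was used only as a label. The files held 10986401 MTF2 lines (52 bp) and 14465269 JARID2 lines (36 bp). On chromosomes 1 to 19, 8563684 and 12512741 reads were kept (81.0% and 89.0%).

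Kept 5' ends were moved downstream by 70 bp (MTF2) or 100 bp (JARID2) and counted in 1 kb bins. The expected count was the mean of a chromosome's bins with a read in either file, up to the 99th percentile. Coordinates are the files' own, counted from 1. The gene and promoter tables at hand are of GRCm38.p6, whose genes run past the reads on 10 of 19 chromosomes, so no gene or sequence was assigned. Intervals are exact (Poisson or Clopper-Pearson, 95%) and cover counting error only. Intervals of shares of bins take the bins as independent, although many members lie together in tracts. The named regions are the 10 highest MTF2 folds among isolated and among near members, at most 1 per 100 kb, the 5 longest isolated runs and the bins at the limits. Members and lists were chosen with earlier results of these data known. The split by surroundings and the tracts were chosen after the data were seen. The scripts were tested on simulated reads. Python 3.11.15, NumPy 2.4.6 and SciPy 1.17.1 were used.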

Additional observations from a re-analysis of the deposited data

How the results depend on the processing

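For 7 results, 91 values under alternatives were computed. Of these, 66 stayed and 25 moved. Staying meant within 1.5 times (counts), within 10 bp (strand distance) or within the interval of the reported value (the rest). Those intervals take bins or lines as independent and may be too narrow. Reversals were not looked for. All 12 strand distances stayed, but the reported 50 bp is the shortest distance counted. Leaving out the limit on lines per kept read changed no member, so its values repeat the reported ones. Stricter limits keep fewer bins by construction; for the other settings the cause was not tested. The number of member bins was 347 with bins of 2 kb, 198 at MTF2 8-fold or more, 469 at JARID2 3 to under 5-fold and 151 with low surroundings only. The isolated share was 87.6% with 2 kb bins, 68.9% at JARID2 3 to under 5-fold and 51.0% with low surroundings only. It was 83.1% with a strong JARID2 bin sought within 2 kb, 60.7% within 10 kb, and 30.5% when strong meant 5-fold. The MTF2 fold in the adjoining bins was 4.67 with chromosome medians in place of means, 7.36 at MTF2 8-fold or more, 4.82 without MTF2 lines of score 0 and 3.47 with low surroundings only. The highest steps lay 600 bp apart within 1 kb of the centre, and 600 bp apart with low surroundings only. The share of score 0 lines was 38.3% without the percentile limit, 41.4% at MTF2 8-fold or more and 37.3% with low surroundings only. Raised surroundings among isolated members were 92.8% with 2 kb bins, 90.7% at MTF2 8-fold or more and 79.6% without MTF2 lines of score 0. They were 62.0% at 3-fold, 92.1% at 1.5-fold and 71.4% for surroundings from 26 to 50 kb. The results on surroundings, and the alternatives by surroundings, were added after the data were seen. No paired analysis was possible because each antibody had 1 library. Depth limits single bins, since at these counts no JARID2 interval could lie within the limits of the rule. The precision of groups was not measured.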
